A study of Mus musculus with 7 samples.

Results

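Synaptic vesicle and synapse scaffold genes were followed through bulk RNA-seq of 2 mouse glioblastoma (GBM) models. The members were 44 listed genes, found by gene name among the 49492 genes of the raw count table. The rule used no measured value, but the list was chosen with earlier results of these data known. They comprised 13 vesicle protein genes, 6 genes of the fusion machinery, 6 of the active zone and vesicle priming, 5 of transmitter loading and synthesis, 6 of the postsynaptic scaffold with its kinase, 5 of synaptic adhesion and 3 genes of neuronal identity.

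The NPCTKO model (n = 4) came from embryonic neocortical precursors electroporated in utero with Cas9 and guides against tumor suppressor genes, *Trp53* and *Nf1* among them, plus a cassette for EGFP or DsRed, and only EGFP+ or DsRed+ cells, collected by FACS, went into RNA isolation. The NSCHRas-shp53 model (n = 3) came from lentivirus carrying a *Trp53* hairpin and constitutively active human *HRAS*, delivered to the adult ventricular-subventricular zone, and its RNA came from whole tumor tissue that was not sorted. Per the labels, all mice were C57BL/6 and 3 months old. The model and the preparation changed together and cannot be told apart, and whole tissue can hold brain cells that a sort would remove. Which reporter a sorted sample carried and which mouse a sample stands for was not given in the sources used here, so that p-values measure only the spread between these samples, which may be partly technical.

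At a chemical synapse, vesicles loaded with glutamate or GABA dock at the active zone of the presynaptic terminal and fuse through SNARE proteins when synaptotagmins bind calcium. Receptors opposite are held in place by scaffold proteins, and adhesion molecules of the neurexin and neuroligin families bridge the cleft. Most of these genes are characteristic of neurons, although precursors and glia, oligodendrocyte precursor cells (OPC) among them, also express some of them.

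In non-neuronal cells many neuronal genes are repressed by REST, a zinc finger factor that binds an element called RE1. RefSeq promoter windows (GRCm38.p6), each 300 bases from 250 before to 50 after a start site, were matched for 32 of the 44 genes. Both strands were searched for the centre of RE1, read as AGCACC followed after any 2 bases by GGNCAG, where N is any base, and it was present in 0.1005% of all 32851 windows and in those of 2 of the matched genes. These were *Syn1* (chrX:20920869-20921168, minus strand) and *Gad2* (chr2:22622077-22622376, plus strand), and their windows are printed since both genes were called higher in the NSCHRas-shp53 tissue, with the match in capitals.

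Syn1: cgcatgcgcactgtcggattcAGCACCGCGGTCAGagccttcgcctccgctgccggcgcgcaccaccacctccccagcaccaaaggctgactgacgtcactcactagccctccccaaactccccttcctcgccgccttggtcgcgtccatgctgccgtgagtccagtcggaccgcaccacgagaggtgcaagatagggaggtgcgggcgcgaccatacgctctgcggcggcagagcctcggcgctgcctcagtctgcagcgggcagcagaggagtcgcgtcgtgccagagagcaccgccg
Gad2: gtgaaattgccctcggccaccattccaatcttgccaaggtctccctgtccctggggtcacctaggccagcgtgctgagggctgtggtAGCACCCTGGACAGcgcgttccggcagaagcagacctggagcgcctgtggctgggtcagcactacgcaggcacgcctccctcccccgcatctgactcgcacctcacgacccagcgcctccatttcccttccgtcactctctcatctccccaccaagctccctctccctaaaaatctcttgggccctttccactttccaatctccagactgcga

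The match began 229 bases before the start site in *Syn1* and 163 bases before it in *Gad2*. With GGACAG as the right side, of the matched genes only *Gad2* held it in a window, against 0.0517% of all windows. The left part of the element (TTCAGCACC, which overlaps this centre) was found in the windows of *Syn1*, *Unc13a* and *Nlgn1* and in 0.371% of all windows. The right part (GGACAGC, which also overlaps the centre) was found for *Gad2*, *Unc13a* and *Tubb3* and in 6.56% of all windows, and the cyclic AMP element TGACGTCA was found for *Syn1* and in 1.79% of them. A match describes these letters and is not a measured binding site. The RNA of *Rest* itself was at 42.2, 29.4, 54.2 and 52.8 CPM (counts per 1000000 counts of the library, scaled with TMM factors) in the 4 NPCTKO samples and at 47.5, 43.9 and 59.7 CPM in the 3 NSCHRas-shp53 samples, and these ranges overlapped.

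Total counts were between 15002873 and 19247326 in NPCTKO and between 17529054 and 19840860 in NSCHRas-shp53 samples, where 3 counts corresponded to 0.130 to 0.234 CPM, a limit that covers counting error only. NPCTKO samples 1 and 2 leaned towards GC-rich transcripts (Spearman correlation of GC content with a gene's deviation from its mean over the 7 samples of 0.570 and 0.492, across genes, which are not independent replicates) and samples 3 and 4 away from them (-0.375 and -0.355). The NSCHRas-shp53 samples lay between -0.285 and -0.160.

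Of the 44 genes, 42 could be tested, and 17 of these differed between the models, most of them vesicle, transmitter and scaffold genes with more transcript in the NSCHRas-shp53 tissue. With edgeR's quasi-likelihood test and Benjamini-Hochberg adjustment, 15 genes were higher in NSCHRas-shp53 than in NPCTKO samples, where 7.77% of all 16091 genes tested were called higher, and 2 were lower, where 5.28% were called lower. The remaining 25 did not pass, and at an unadjusted p under 0.05 the counts were 24 higher and 3 lower, against 15.2% and 15.1% of all genes tested. The median log2 fold change (NSCHRas-shp53 minus NPCTKO) of the 42 genes was 1.11, against -0.10 over all genes tested, and over all genes it was 0.09 when the TMM factors were left out. Fewer cells of a type and less RNA per cell cannot be told apart in bulk samples.

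Without regard to a test, 21 of the 42 genes had every NSCHRas-shp53 sample above every NPCTKO sample in CPM, which 16.3% of all genes tested also showed, and 3 had the opposite order, against 14.9%. Fewer genes were called when any 1 library of the smaller group was left out, among the listed genes and among all genes tested. Without NSCHRas-shp53 sample 1, 9 genes were called higher and 1 lower, with 4.21% and 1.4% of all genes called in that fit. Without sample 2 the calls were again 9 and 1, with 2.76% and 0.86% of all genes, and without sample 3 they were 6 and 0, with 2.51% and 0.751% of all genes. Without NPCTKO samples 3 and 4 together, 25 were called higher and 4 lower, with 27.9% and 26% of all genes called. *Syt1*, *Sv2b*, *Cplx2*, *Slc12a5* and *Rbfox3* were called in all 18 other fits, and *Camk2a* also in each of the 7 fits without 1 library.

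**Figure D1:**
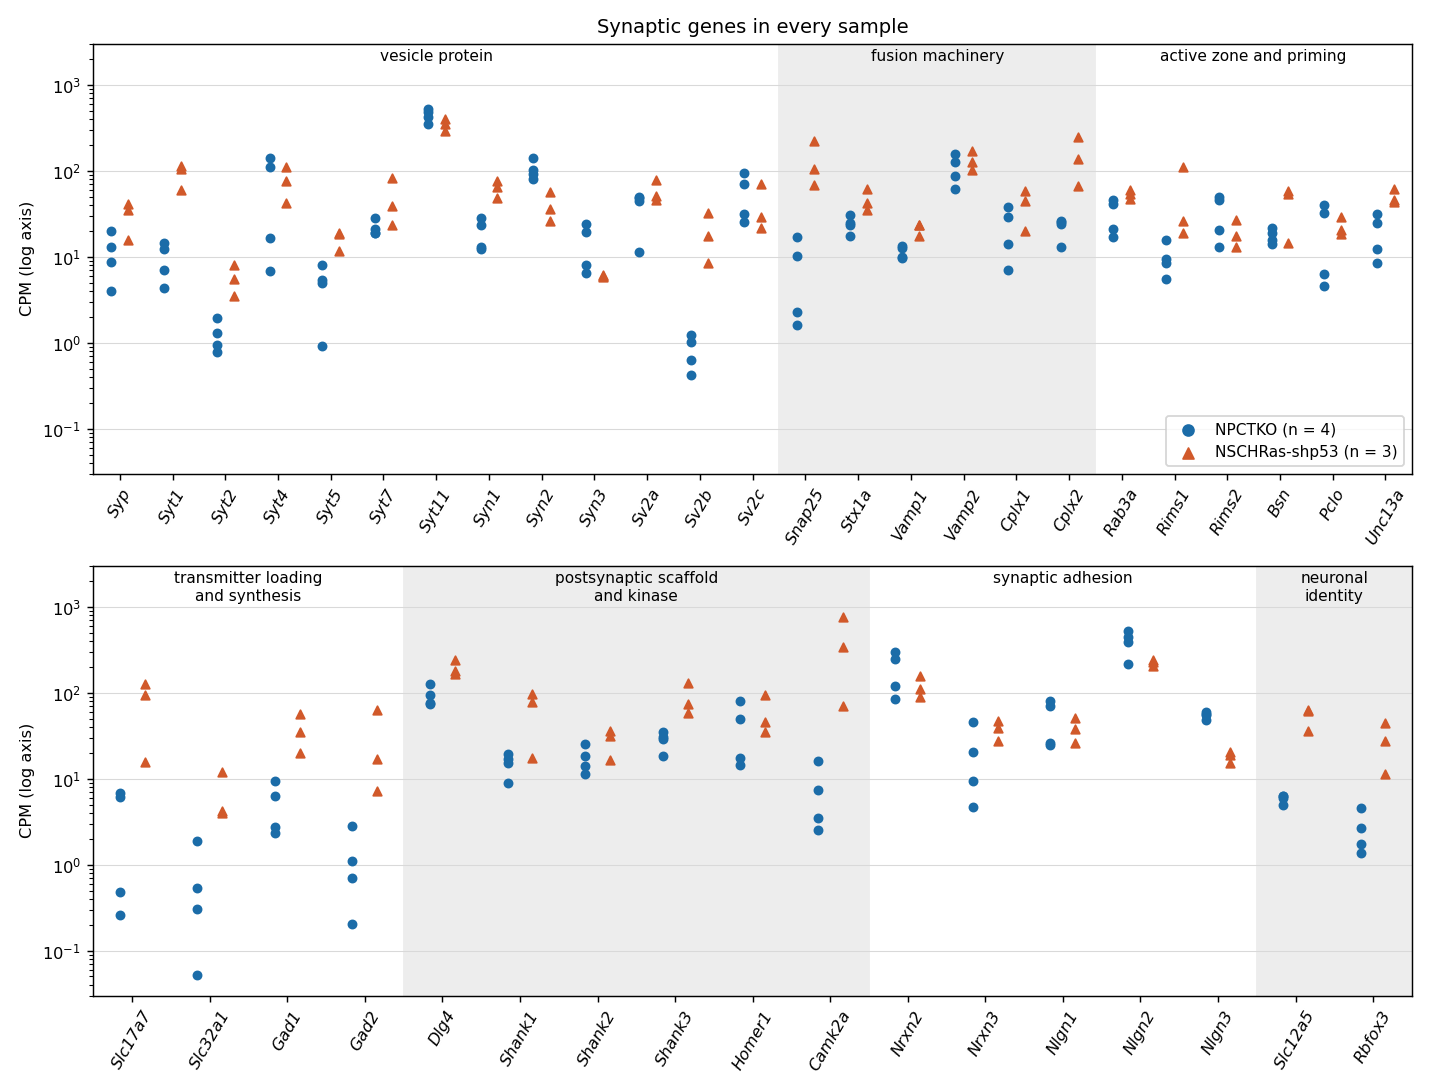
CPM of the 42 tested genes (log axis) in each NPCTKO sample (circles, n = 4) and each NSCHRas-shp53 sample (triangles, n = 3), grouped by role. The triangles stand above all circles for 21 genes, such as *Sv2b*, *Snap25* and *Gad2*, and below all circles for *Syn2*, *Syn3* and *Nlgn3*.

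Among the 13 vesicle protein genes, 4 were higher in NSCHRas-shp53 samples (*Sv2b*, *Syt1*, *Syt2* and *Syn1*), 1 was lower (*Syn2*) and 8 were not called, with a median log2 fold change of 1.15. The summed CPM of the group overlapped between the models, at 767 to 848 in NPCTKO and 691 to 932 in NSCHRas-shp53 samples.

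*Sv2b*, which encodes a glycoprotein of the vesicle membrane, was at 1.01, 1.25, 0.625 and 0.423 CPM in NPCTKO samples 1 to 4 and at 32.8, 8.47 and 17.7 CPM in NSCHRas-shp53 samples 1 to 3. All NPCTKO samples were low, and the groups did not overlap. The log2 fold change was 4.57 ± 0.61 (SE, adjusted p = 0.00516, edgeR). *Syt1*, the calcium sensor of fast release, was at 7.06, 4.29, 12.5 and 14.6 CPM in NPCTKO and at 113, 60.6 and 105 CPM in NSCHRas-shp53 samples. Here too every tissue sample was above every sorted sample, with a log2 fold change of 3.27 ± 0.47 (SE, adjusted p = 0.00676, edgeR). Its relative *Syt2*, a fast calcium sensor of hindbrain and inhibitory synapses, stayed at 0.786 to 1.95 CPM in NPCTKO and reached 3.498, 5.48 and 8.04 CPM in NSCHRas-shp53 samples, also without overlap. That log2 fold change was 2.18 ± 0.51 (SE, adjusted p = 0.0297, edgeR), and the call was lost without NPCTKO sample 2 or 4 (adjusted p = 0.0641 and 0.0575) and without NSCHRas-shp53 sample 2 or 3 (adjusted p = 0.0971 and 0.145).

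The synapsins, phosphoproteins that tether vesicles in the reserve pool, moved in opposite directions. *Syn1* was at 12.4, 23.5, 28.03 and 13.2 CPM in NPCTKO and at 64.8, 47.8 and 75.4 CPM in NSCHRas-shp53 samples. *Syn2* was at 139.8, 103, 79.7 and 93.0 CPM in NPCTKO and at 35.9, 26.3 and 56.4 CPM in NSCHRas-shp53 samples. Neither gene overlapped between the models, *Syn1* being high and *Syn2* low in all 3 tissue samples. *Syn1* had a log2 fold change of 1.70 ± 0.37 (SE, adjusted p = 0.0232, edgeR) and *Syn2* one of -1.39 ± 0.36 (SE, adjusted p = 0.0388, edgeR). The call of *Syn1* was lost without NSCHRas-shp53 sample 1, 2 or 3 (adjusted p = 0.0732, 0.0601 and 0.110). The call of *Syn2* was lost without any 1 library other than NPCTKO sample 3 (adjusted p between 0.0547 and 0.151), without TMM factors (adjusted p = 0.0730) and on FPKM values (adjusted p = 0.0516, limma). *Syn3* was at 6.46, 8.03, 24.0 and 19.3 CPM in NPCTKO and at 6.23, 5.83 and 5.97 CPM in NSCHRas-shp53 samples. In CPM its tissue samples were all just below the lowest sorted sample, while its FPKM values overlapped. Its log2 fold change was -1.26 (adjusted p = 0.149, edgeR).

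Each synapsin gene holds a *Timp* gene of the opposite strand inside it, and all 11012 genes that lie wholly inside another gene had 0 counts in this table. *Timp1*, inside *Syn1* at X:20870166-20874735, was at 0 counts in every library, whereas its FPKM value was 3.71 to 14.0 in NPCTKO and 325, 1265 and 909 in NSCHRas-shp53 samples. FPKM values of *Syn1*, which Cufflinks estimated separately, were 2.91, 5.65, 5.93 and 2.36 in NPCTKO and 17.4, 9.67 and 17.2 in NSCHRas-shp53 samples, likewise without overlap. Of the exon bases of *Syn2*, 26.8% were shared with other annotated genes, as were 14.1% of those of *Syn3*, so counts of both are uncertain, and their part in the differences was not tested.

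Other vesicle genes were not called. *Syt11*, a synaptotagmin that does not bind calcium and is expressed widely in brain, was the most abundant of the 43 genes with FPKM values in both models, with a mean of 100.6 ± 14.2 FPKM (SD, n = 4) and 78.1 ± 12.7 FPKM (SD, n = 3). In CPM it was at 519.9, 490.2, 428 and 355 in NPCTKO and at 407, 294 and 355 in NSCHRas-shp53 samples, which overlapped, with a log2 fold change of -0.35 (adjusted p = 0.478, edgeR). *Sv2c*, the SV2 form of the basal ganglia, was at 25.3, 31.9, 70.2 and 95.3 CPM in NPCTKO and at 21.8, 29.0 and 70.9 CPM in NSCHRas-shp53 samples, with a log2 fold change of -0.46 (adjusted p = 0.633, edgeR). The other 5, *Syp*, *Syt4*, *Syt5*, *Syt7* and *Sv2a*, had log2 fold changes between 0.14 and 1.77 and adjusted p-values between 0.101 and 0.940. *Syp*, whose product synaptophysin is the classical vesicle marker, was at 12.98, 20.0, 8.80 and 3.99 CPM in NPCTKO and at 35.3, 15.5 and 41.2 CPM in NSCHRas-shp53 samples. In CPM, sample 2 of the tissue lay inside the range of the sorted cells. FPKM values of *Syp* were 12.8, 14.6, 7.17 and 3.58 in NPCTKO and 36.6, 19.4 and 38.2 in NSCHRas-shp53 samples. These did not overlap (adjusted p = 0.0396, limma on log2(FPKM + 1)), and 3 of 18 other fits called the gene. Of its exon bases 27.25% are shared with *Gm14703*, so its counts are uncertain.

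**Figure D2:**
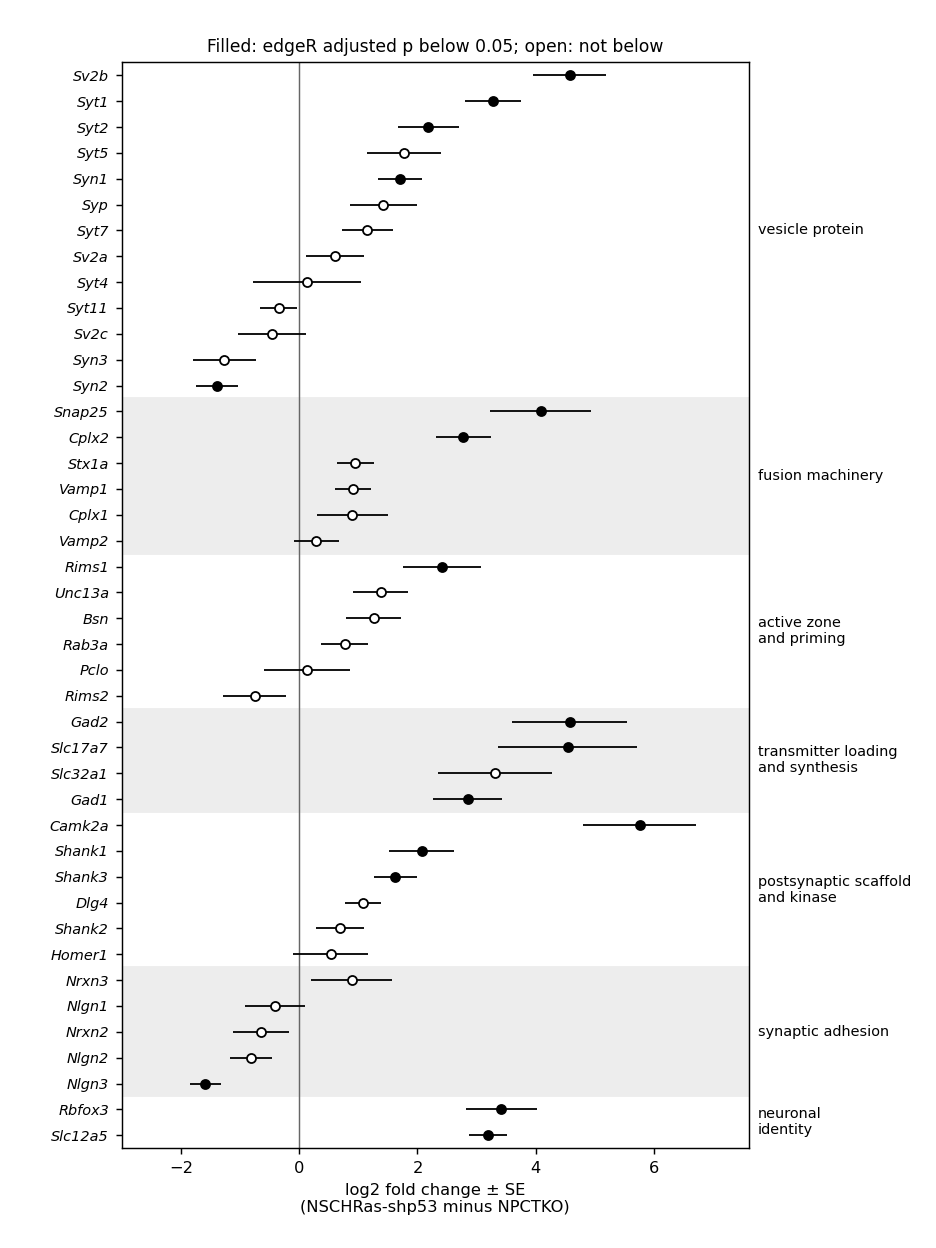
Log2 fold change ± SE (NSCHRas-shp53 minus NPCTKO, edgeR) of the 42 tested genes by role, where filled points have an adjusted p below 0.05. Values reach from -1.59 for *Nlgn3* to 5.75 for *Camk2a*, and 33 of the 42 are above 0.

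All 6 genes of the fusion machinery had positive log2 fold changes (median 0.93) and 2 of them, *Snap25* and *Cplx2*, were called. *Snap25*, a SNARE protein of the plasma membrane, was at 1.61, 2.26, 17.1 and 10.3 CPM in NPCTKO and at 224, 69.3 and 106 CPM in NSCHRas-shp53 samples. The lowest tissue sample was above the highest sorted sample, and among sorted samples 3 and 4 were the higher ones. A log2 fold change of 4.08 ± 0.86 (SE, adjusted p = 0.0201, edgeR) resulted, and the call was lost without NSCHRas-shp53 sample 1, 2 or 3 (adjusted p = 0.0679, 0.0511 and 0.0652). *Cplx2*, a complexin that clamps and promotes SNARE fusion, was at 23.9, 25.2, 26.4 and 13.1 CPM in NPCTKO and at 251, 67.4 and 136 CPM in NSCHRas-shp53 samples. No values overlapped, and the log2 fold change was 2.78 ± 0.47 (SE, adjusted p = 0.0101, edgeR). *Vamp2*, the main vesicle SNARE, had the highest FPKM of the group in NPCTKO (mean 47.5 FPKM) and was at 159, 128, 86.7 and 61.6 CPM there and at 171, 102 and 127 CPM in NSCHRas-shp53 samples. Its ranges overlapped, with a log2 fold change of 0.29 (adjusted p = 0.642, edgeR). *Stx1a*, *Vamp1* and *Cplx1* had log2 fold changes between 0.90 and 0.95 with adjusted p-values between 0.0862 and 0.348, and of these *Stx1a* and *Vamp1* did not overlap between the models.

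One of 6 active zone genes was called, and the median log2 fold change of the group was 1.01. *Rims1*, a scaffold that docks vesicles next to calcium channels, was at 8.41, 5.46, 15.7 and 9.55 CPM in NPCTKO and at 112, 18.8 and 26.3 CPM in NSCHRas-shp53 samples. Sample 1 of the tissue stood far above the other samples. Its log2 fold change was 2.41 ± 0.65 (SE, adjusted p = 0.0457, edgeR), which fell to 1.23 without that sample (adjusted p = 0.184), and the call was also lost without any other 1 library except NPCTKO sample 3 (adjusted p between 0.0580 and 0.0995), without TMM factors (adjusted p = 0.0611) and on FPKM values (adjusted p = 0.144, limma). *Unc13a*, a priming factor, was at 24.96, 31.5, 8.54 and 12.4 CPM in NPCTKO and at 46.2, 43.1 and 61.3 CPM in NSCHRas-shp53 samples. These did not overlap, but the log2 fold change of 1.38 did not pass (adjusted p = 0.0863, edgeR). FPKM values of *Unc13a* did overlap, at 5.69, 7.19, 2.21 and 3.11 in NPCTKO and 6.90, 7.83 and 6.82 in NSCHRas-shp53 samples. *Rab3a*, the GTPase of the vesicle surface, had the highest mean CPM of the group over all 7 samples, at 45.9, 41.3, 16.8 and 21.3 CPM in NPCTKO and at 59.6, 53.3 and 47.0 CPM in NSCHRas-shp53 samples, also without overlap, and its log2 fold change was 0.77 (adjusted p = 0.228, edgeR). *Rims2*, the paralog of *Rims1*, was at 20.3, 13.02, 50.1 and 46.0 CPM in NPCTKO and at 27.2, 17.4 and 13.02 CPM in NSCHRas-shp53 samples, with overlap and a log2 fold change of -0.75 (adjusted p = 0.372, edgeR). The giant scaffold genes *Bsn* and *Pclo* were at a log2 fold change of 1.26 and 0.13 (adjusted p = 0.114 and 0.928, edgeR).

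Of the genes that load or make transmitter, 3 of 4 tested were called higher, and their median log2 fold change of 3.93 was the highest of the 7 role groups. Their summed CPM was 9.38 to 11.5 in NPCTKO and 148 to 161 in NSCHRas-shp53 samples. This sum was nearly even across the 3 tissue samples, although its glutamatergic and GABAergic parts were not. *Slc17a7*, the vesicular glutamate transporter VGLUT1 of cortical neurons, was at 6.79, 6.16, 0.260 and 0.484 CPM in NPCTKO and at 127, 15.6 and 95.02 CPM in NSCHRas-shp53 samples. Sample 2 was the low one of the tissue, and samples 1 and 2 the high ones of the sorted cells. The log2 fold change was 4.54 ± 1.18 (SE, adjusted p = 0.0402, edgeR), and the call was lost without any 1 library except NPCTKO sample 3 (adjusted p between 0.0535 and 0.127). *Slc17a6*, the glutamate transporter VGLUT2 of thalamus and brainstem, was too low to be tested. It had 0 counts in all 4 NPCTKO samples and 37, 4 and 24 counts in the NSCHRas-shp53 samples. The level pooled over the NSCHRas-shp53 samples was at least 22.5-fold higher, with 3 counts over the whole NPCTKO group taken as the limit. NSCHRas-shp53 sample 2 alone was at 0.203 CPM, where 3 counts of that library correspond to 0.152 CPM.

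*Gad1*, which encodes an enzyme of GABA synthesis, was at 2.35, 2.73, 6.25 and 9.37 CPM in NPCTKO and at 20.1, 57.2 and 34.9 CPM in NSCHRas-shp53 samples. *Gad2*, its synaptic form, was at 0.202, 0.702, 2.81 and 1.09 CPM in NPCTKO and at 7.27, 63.4 and 16.7 CPM in NSCHRas-shp53 samples. Both separated the models, and both were highest in sample 2 of the tissue. The log2 fold change was 2.85 ± 0.59 for *Gad1* (SE, adjusted p = 0.0189, edgeR) and 4.57 ± 0.98 for *Gad2* (SE, adjusted p = 0.0214, edgeR). Without NSCHRas-shp53 sample 2 or 3 the calls of *Gad1* (adjusted p = 0.0839 and 0.0707) and *Gad2* (adjusted p = 0.0940 and 0.0615) were lost, and without NPCTKO sample 2 that of *Gad2* (adjusted p = 0.0513). *Slc32a1*, the transporter that fills vesicles with GABA, was at 0.538, 1.87, 0.0521 and 0.302 CPM in NPCTKO and at 4.21, 11.97 and 4.02 CPM in NSCHRas-shp53 samples. It also peaked in sample 2 and did not overlap, but its log2 fold change of 3.31 ± 0.96 (SE, adjusted p = 0.0571, edgeR) was just outside the threshold, and 10 of 18 other fits called it. For *Gad1*, 8.52% of the exon bases are shared with the opposite-strand transcript *Gad1os*, and for *Slc32a1* 25.8% with *Gm14205*, so these counts carry some uncertainty.

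**Figure D3:**
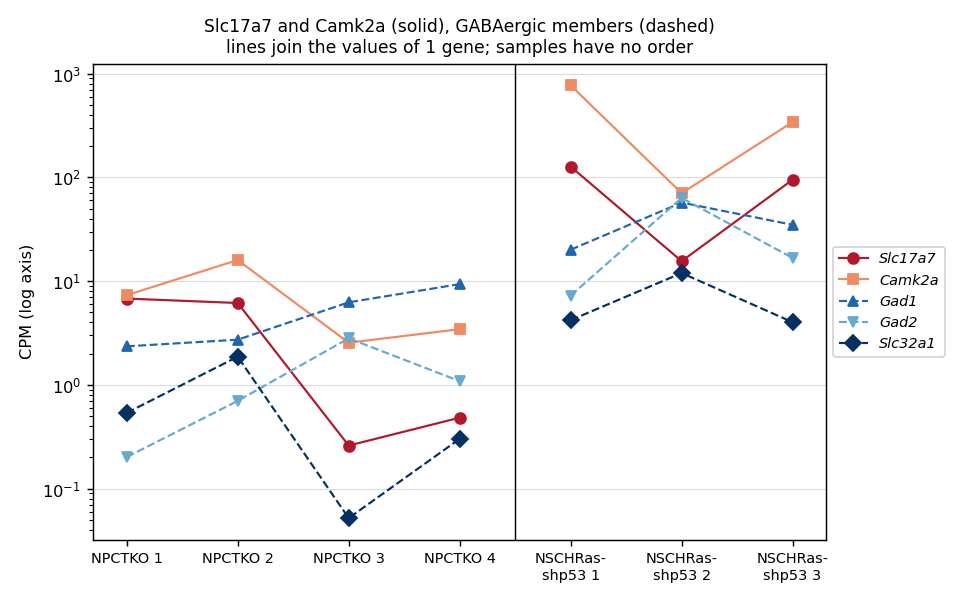
CPM (log axis) of *Slc17a7* and *Camk2a* (solid lines) and of the GABAergic genes *Gad1*, *Gad2* and *Slc32a1* (dashed lines) in the 4 NPCTKO and 3 NSCHRas-shp53 samples, where lines only join the values of a gene. In NSCHRas-shp53 sample 2 the solid lines dip, to 15.6 CPM for *Slc17a7*, while the dashed lines peak, at 63.4 CPM for *Gad2*.

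The same tissue sample was also high in striatal markers. *Penk* was at 16.3, 66.3 and 21.5 CPM, *Drd1* at 1.31, 8.83 and 1.43 CPM and *Tac1* at 0.601, 27.2 and 0.519 CPM in NSCHRas-shp53 samples 1 to 3. *Neurod2*, a transcription factor of cortical excitatory neurons, was lowest there, at 11.4, 1.73 and 20.2 CPM. Whether the region or the amount of brain in each piece differed was not given in the sources used here, and its part in these levels was not tested.

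Postsynaptic genes gave 3 calls among 6, all higher, with a median log2 fold change of 1.35 and no negative value. *Camk2a*, a calcium-dependent kinase concentrated in excitatory synapses of the forebrain, was at 7.33, 15.99, 2.55 and 3.45 CPM in NPCTKO and at 770.4, 70.4 and 342 CPM in NSCHRas-shp53 samples. The tissue samples spread widely yet all stood above the sorted ones. With 5.75 ± 0.96 it had the largest log2 fold change of the 42 genes (SE, adjusted p = 0.00962, edgeR). *Shank3*, a master scaffold of excitatory synapses, was at 35.3, 28.6, 18.4 and 30.9 CPM in NPCTKO and at 130.1, 57.5 and 73.7 CPM in NSCHRas-shp53 samples. These groups were apart, with a log2 fold change of 1.62 ± 0.36 (SE, adjusted p = 0.0255, edgeR), and the call was lost without NPCTKO sample 2 (adjusted p = 0.0515) and without NSCHRas-shp53 sample 1 or 3 (adjusted p = 0.0838 and 0.0789).

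*Shank1*, a related scaffold, was at 15.4, 19.4, 8.80 and 16.9 CPM in NPCTKO and at 96.3, 17.5 and 77.3 CPM in NSCHRas-shp53 samples. Here sample 2 of the tissue fell within the NPCTKO range. The log2 fold change of 2.07 ± 0.55 passed (SE, adjusted p = 0.0431, edgeR), but not without any 1 library other than NSCHRas-shp53 sample 2 (adjusted p between 0.0582 and 0.159) nor on FPKM values (adjusted p = 0.0543, limma). *Dlg4*, which encodes the central scaffold PSD-95, was at 126, 74.9, 76.6 and 94.2 CPM in NPCTKO and at 242, 181 and 164 CPM in NSCHRas-shp53 samples. It separated the models but lay just outside the threshold, with a log2 fold change of 1.07 ± 0.30 (SE, adjusted p = 0.0504, edgeR), and 9 of 18 other fits called it. For *Shank2* and *Homer1* the log2 fold change was 0.70 and 0.54 (adjusted p = 0.286 and 0.607, edgeR), and their values overlapped.

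Of 5 synaptic adhesion genes, 1 was called lower and 0 higher (by edgeR, also 1 and 0 at an unadjusted p under 0.05 and with DESeq2), 4 had negative values, and the median log2 fold change was -0.65. *Nlgn3*, a neuroligin that neurons and OPC both express, was at 60.1, 56.7, 54.7 and 47.8 CPM in NPCTKO and at 15.2, 20.4 and 19.1 CPM in NSCHRas-shp53 samples. Both groups were tight and far apart, with a log2 fold change of -1.59 ± 0.27 (SE, adjusted p = 0.00976, edgeR), and the call was lost in 1 of 18 other fits, without NSCHRas-shp53 sample 3 (adjusted p = 0.0569). Of its exon bases 50.2% are shared with the annotated gene *Gm21986*, so its counts are uncertain, but its FPKM values were 28.4, 34.7, 32.5 and 24.4 in NPCTKO and 7.89, 7.59 and 10.3 in NSCHRas-shp53 samples, again without overlap.

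*Nlgn2*, the neuroligin of inhibitory synapses, had the highest FPKM of the adhesion genes (mean 63.3 FPKM in NPCTKO) and was at 526, 389.6, 441 and 219 CPM in NPCTKO and at 206, 239 and 226 CPM in NSCHRas-shp53 samples. Only NPCTKO sample 4 lay in the range of the tissue, and the log2 fold change of -0.82 did not pass (adjusted p = 0.168, edgeR). *Nlgn1*, the neuroligin of excitatory synapses, was at 25.9, 24.5, 80.7 and 71.0 CPM in NPCTKO and at 25.7, 50.3 and 37.9 CPM in NSCHRas-shp53 samples (log2 fold change -0.41, adjusted p = 0.619, edgeR). *Nrxn2*, a presynaptic neurexin, was at 245, 294, 119 and 84.8 CPM in NPCTKO and at 155, 89.4 and 111 CPM in NSCHRas-shp53 samples (log2 fold change -0.65, adjusted p = 0.394, edgeR). Both overlapped, and the sign of *Nrxn2* turned on FPKM values (0.31, limma) and without NPCTKO samples 1 and 2 together (0.25), that of *Nlgn1* without NPCTKO samples 3 and 4 together (0.58). *Nrxn3* was the only adhesion gene with a positive log2 fold change, 0.89 (adjusted p = 0.416, edgeR).

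Both tested genes of neuronal identity were called higher. *Slc12a5*, the chloride exporter KCC2 of mature neurons, was at 6.26, 6.32, 5.89 and 4.96 CPM in NPCTKO and at 63.7, 35.7 and 61.5 CPM in NSCHRas-shp53 samples. The sorted samples agreed closely and stood well below the tissue, with a log2 fold change of 3.19 ± 0.32 (SE, adjusted p = 0.00268, edgeR). *Rbfox3*, which encodes the nuclear protein NeuN, was at 1.75, 2.65, 1.35 and 4.59 CPM in NPCTKO and at 43.995, 11.5 and 27.8 CPM in NSCHRas-shp53 samples. It was also separate, with a log2 fold change of 3.42 ± 0.60 (SE, adjusted p = 0.0113, edgeR). *Tubb3*, a tubulin of young and mature neurons that gliomas can also express, lies wholly inside *Gm20388* and had 0 counts in every library. Its FPKM values were 72.6, 61.7, 68.2 and 20.4 in NPCTKO and 46.1, 81.1 and 47.7 in NSCHRas-shp53 samples. These overlapped, with a difference of 0.17 on the log2(FPKM + 1) scale (adjusted p = 0.847, limma on log2(FPKM + 1)).

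Shares within families of related genes are given as a description. Of the summed FPKM of the synapsins, *Syn1* held 7.53, 15.4, 22.3 and 8.84% in NPCTKO and 60.2, 58.0 and 50.7% in NSCHRas-shp53 samples. *Syn2* held 65.0 to 89.1% in NPCTKO and 36.6 to 45.1% in NSCHRas-shp53 samples, so that *Syn2* led in every sorted sample and *Syn1* in every tissue sample. *Sv2b* held 0.580 to 1.81% of the SV2 genes in NPCTKO and 9.70 to 22.2% in NSCHRas-shp53 samples. *Nlgn3* held 26.2 to 35.1% of the neuroligins in NPCTKO and 13.7 to 17.6% in NSCHRas-shp53 samples. Of the 6 synaptotagmins, *Syt1* held 0.884 to 1.97% in NPCTKO and 9.51 to 17.4% in NSCHRas-shp53 samples, while *Syt11* held the largest share in all 7.

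A ratio of 2 genes within a library does not depend on the library's scaling. Of 32 pairs of genes that share a name root in 10 families, a comparison added after the values were seen, 13 did not overlap between the models in their ratio of counts. *Slc17a6* and *Slc17a7* were not paired. The share among pairs of other genes was not taken, so this count has no background. Single genes did not overlap for 16.3% (higher) and 14.9% (lower) of all genes tested. The log2 ratio of *Syn1* to *Syn2* was -3.49, -2.14, -1.51 and -2.82 in NPCTKO and 0.85, 0.86 and 0.42 in NSCHRas-shp53 samples, a difference of 3.20 that every sample showed. In an exact two-sided permutation test over 35 splits it had p = 0.0286, which is the smallest p these 7 samples allow, and 0.0762 after Benjamini-Hochberg adjustment over the 32 pairs. The same p-values were reached by 11 other pairs, such as *Cplx1* to *Cplx2* (difference -1.59), *Rims1* to *Rims2* (2.67), *Sv2a* to *Sv2b* (-3.65) and *Nlgn2* to *Nlgn3* (0.84). No pair passed after adjustment. With 32 pairs and this smallest p, none could pass unless more than these 12 pairs reached it, so the lack of a call says little about any pair. Many pairs also share a gene.

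**Figure D4:**
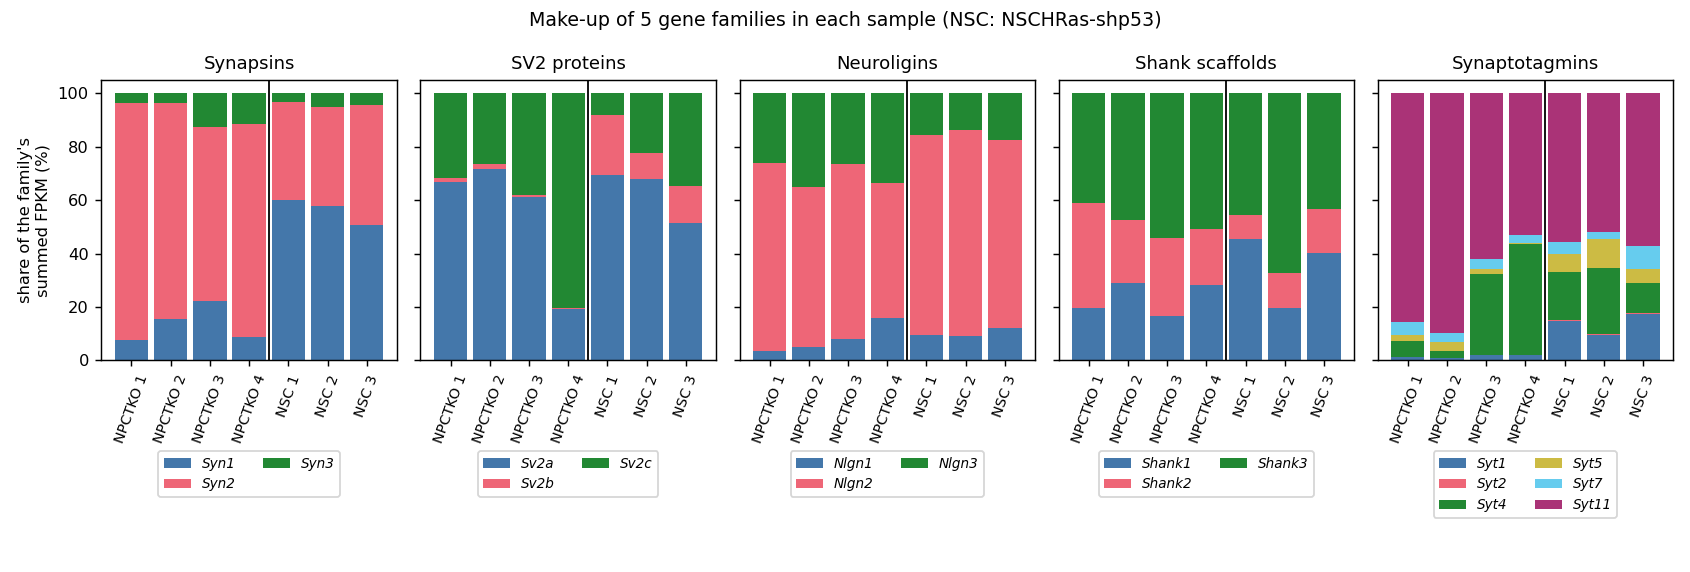
Share (%) of the summed FPKM of 5 gene families taken by each gene in the 4 NPCTKO and 3 NSCHRas-shp53 (NSC) samples, where each bar adds up to all listed genes of the family. The share of *Syn1* is at most 22.3% in NPCTKO and at least 50.7% in NSCHRas-shp53 samples.

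The sorted samples also differed among themselves. Of the 42 genes, 14 were higher in both NPCTKO samples 3 and 4 than in both samples 1 and 2, and 16 were lower, shares near those of all genes tested (36.3% and 37.9%). *Syt4*, *Pclo*, *Homer1* and *Nrxn3*, named after their values were seen, were among the 14. *Syt4*, a synaptotagmin of dense-core vesicles, was at 16.4, 6.86, 112 and 141 CPM in NPCTKO and at 75.4, 110.2 and 41.8 CPM in NSCHRas-shp53 samples. *Pclo*, an active zone scaffold, was at 6.39, 4.52, 40.0 and 32.1 CPM in NPCTKO and at 20.8, 18.5 and 28.9 CPM in NSCHRas-shp53 samples. In both genes every tissue sample lay between these pairs of sorted samples. *Homer1*, a postsynaptic adaptor, was at 14.3, 17.4, 79.6 and 49.0 CPM and *Nrxn3* at 4.64, 9.36, 46.3 and 20.6 CPM in NPCTKO samples. *Syp*, *Slc17a7*, *Camk2a* and *Nrxn2* were among the 16 with the opposite order. The split is also the order of the lean in GC content. Sums of some marker lists of other cells were split the same way, whereas those of neuron, interneuron and astrocyte markers were not. The summed CPM of the tumor-associated macrophage (TAM) markers was 17033 and 21151 in NPCTKO samples 1 and 2 and 385 and 2649 in samples 3 and 4. That of the OPC markers was 4529.8 and 5701 in samples 1 and 2 and 2607 and 2500.1 in samples 3 and 4. The part of the GC lean and of these cells in the levels of single genes was not tested. With trends in GC content and length taken as offsets, an alternative chosen after seeing the data, 19 genes were called higher and 4 lower, where 9.88% and 11.5% of all genes were called, and *Syn3* and *Nlgn1* joined the lower ones (adjusted p = 0.0304 and 0.0356).

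Across the 7 samples, levels in log2(CPM + 1) were most alike for *Sv2b* and *Camk2a* (Pearson r = 0.988), *Sv2b* and *Slc12a5* (0.986) and *Sv2b* and *Cplx2* (0.984), given as a description of 7 samples of which 3 share a model. *Slc17a7* was close to *Camk2a* (0.975) and *Gad1* to *Gad2* (0.953). Of the 42 genes, 23 had their highest tissue value in NSCHRas-shp53 sample 1, as 36.1% of all genes tested did, and 27 had their lowest in sample 2, as 32.1% of all genes did.

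Genes of the synapse outside the 44 were read from 2 longer lists. Of 47 other vesicle and release genes, 44 were tested, 8 were higher and 2 lower, with a median log2 fold change of 0.82. Over all genes tested 7.77% were higher and 5.28% lower, shares that also stand beside the lists that follow. The smallest p-values were those of *Unc13c* (log2 fold change 4.66), a priming factor, *Atp6v1g2* (2.52), a proton pump subunit, and *Syt9* (-2.47), a synaptotagmin, and *Dnm3* (-1.35), a dynamin, was the other lower gene. Without NSCHRas-shp53 sample 1, 2 or 3 the number called higher was 4, 2 and 2 (4.21%, 2.76% and 2.51% of all genes), and without NPCTKO sample 2 it was 5 (5.48%). The number called lower was 1 without any 1 library, except 0 without NSCHRas-shp53 sample 3 (0.751% to 7.62% of all genes). Of 32 other scaffold and adhesion genes, 28 were tested, 3 were higher (among them *Dlg2*, 2.76, and *Dlg1*, 1.63) and 1 was lower (*Slitrk3*, -1.30), with a median of 0.38. Without any 1 of the NSCHRas-shp53 samples 1 of these was called higher and 0 lower, and the lower call was also absent without NPCTKO sample 1, 2 or 4. Of 20 genes of the REST complex and of neuronal transcription factors, 16 were tested. *Neurod2* (6.99), *Sp8* (6.72) and *Myt1l* were higher, and *Rcor2* (-2.10), a REST corepressor, and *Myt1* (-2.70) were lower. The number called higher was 2 without NSCHRas-shp53 sample 1 or 3 or NPCTKO sample 1, 2 or 4.

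Markers of other cells moved between the models beside these genes. Of 12 general neuron markers 11 were tested and 3 were higher, *Stmn2* (log2 fold change 4.96), *Celf4* (2.76) and *Thy1* (2.84). Of the other 8, 5 had negative values, from -0.17 for *Elavl3* to -1.21 for *Uchl1* (adjusted p = 0.0733, edgeR), which was the 1 of these 5 without overlap and lower at an unadjusted p under 0.05, and DESeq2 called 5 of the 11 higher and 1 lower. The summed CPM of the list overlapped at 928 to 1289 in NPCTKO and 1021 to 1422 in NSCHRas-shp53 samples, and *Nefl* was at 0 counts in all libraries. Of 6 interneuron markers 5 were tested and 3 were higher (*Pvalb*, 3.68, *Lhx6*, 5.19, and *Sst*, 5.54), while 1 had a negative value (-1.05). The summed CPM of this list was 6.46 to 22.5 in NPCTKO and 24.6 to 79.1 in NSCHRas-shp53 samples. The striatal markers *Penk* (2.47) and *Drd1* (2.48) were not called. Of 8 astrocyte markers 7 were called higher, led by *Slc39a12* (5.54), *Fam107a* (7.21) and *Slc1a2* (4.72), and all 8 were higher without overlap. Their summed CPM was 219.8 to 608 in NPCTKO and 2987 to 4152 in NSCHRas-shp53 samples. Of 8 OPC markers 6 were tested and 5 were lower (*Cacng4*, -2.48, *Cspg4*, -3.31, *Sox10*, -2.95, *Pdgfra*, -1.74, and *Olig2*, -2.12), with 2500.1 to 5701 CPM in NPCTKO and 518 to 911 CPM in NSCHRas-shp53 samples, and *Gpr17* and *C1ql1* were at 0 counts. Because genes wholly inside another gene had 0 counts in this table, a count of 0 does not show that *Nefl*, *Gpr17* or *C1ql1* was absent.

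Endothelial markers were higher for 3 of 8 (*Flt1*, 2.66, *Tek*, 2.71, and *Slco1a4*, 3.68), at 32.0 to 321 CPM in NPCTKO and 498 to 1030.5 CPM in NSCHRas-shp53 samples. Of 9 tested TAM markers, led by *Ptprc* (1.05), *C1qa* (-2.07) and *Aif1* (-1.65), 0 were called by edgeR, 0 at an unadjusted p under 0.05 and 0 by DESeq2, with sums of 385 to 21151 CPM in NPCTKO and 2162 to 6017 CPM in NSCHRas-shp53 samples and *P2ry12* at 0 counts, which likewise does not show its absence. Of 8 oligodendrocyte markers, led by *Cnp* (-1.47), *Mag* (-1.47) and *Mobp* (1.60), 0 were called in each of these 3 ways, with sums of 968 to 6398 CPM in NPCTKO and 1122 to 8250 CPM in NSCHRas-shp53 samples. Calls of the OPC, neuron, interneuron and endothelial lists also became fewer without single libraries, as they did over all genes tested. Of the astrocyte markers, 6 to 8 were called higher without any 1 library. Without NSCHRas-shp53 sample 1, 2 or 3 the number of OPC markers called lower was 3, 2 and 2, and the number of neuron markers called higher was 1 each time. Without NPCTKO sample 4 it was 2. Interneuron markers gave 1 call without NSCHRas-shp53 sample 2 or 3. Endothelial markers gave 0 calls without NPCTKO sample 1 or 2 or any 1 NSCHRas-shp53 sample and 2 without NPCTKO sample 4. The part of these cells in the levels of the synaptic genes was not tested.

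**Figure D5:**
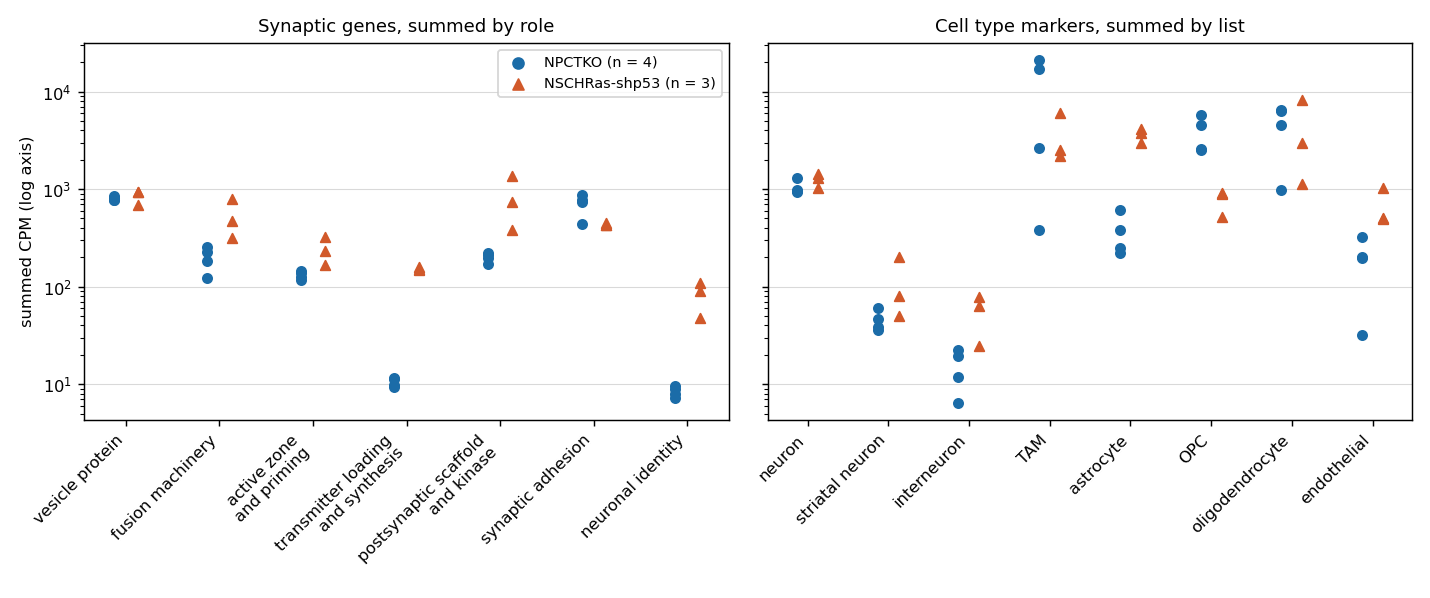
Summed CPM (log axis) of the synaptic genes by role (left) and of cell type markers by list (right) in each NPCTKO (circles, n = 4) and NSCHRas-shp53 sample (triangles, n = 3). Sums of the transmitter genes are 9.38 to 11.5 CPM in NPCTKO and 148 to 161 CPM in NSCHRas-shp53 samples, while those of the adhesion genes are 443 to 862 and 430 to 446 CPM and overlap.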

How the data were processed

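RNA was profiled from 4 NPCTKO samples (sorted EGFP+ or DsRed+ cells) and 3 NSCHRas-shp53 samples (whole tissue), as libraries selected for poly(A) RNA with a non-directional kit per the labels, so that strand is not known. The authors trimmed reads with cutadapt (1.16, per the submitters' processing notes) and aligned them with TopHat2 2.1.1 to mm10. The authors deposited raw counts per gene, made with a counting tool not given in the sources used here. For the deposited FPKM values per locus the authors used Cufflinks 2.2.1, and *Slc17a7* shares a row with another gene there and was not read.

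The 44 genes, their role groups and the other lists were chosen with earlier results of these data known. Counts were tested with edgeR 4.0.16 (TMM factors, filterByExpr with a minimum count of 10, quasi-likelihood test, Benjamini-Hochberg adjusted p under 0.05 over all 16091 genes) in R 4.3.3, on all 7 samples, as NSCHRas-shp53 minus NPCTKO. Pair ratios (count + 0.5) were compared by an exact permutation test in scipy 1.17.1, with Python 3.11.15, numpy 2.4.6, pandas 2.3.3 and matplotlib 3.10.9. Sample values are given for called members, the 2 members with the smallest p and the most abundant one of each role group, members with a negative fold change and those not tested. Of other lists, genes called lower and the 3 with the smallest p are named. Other genes named in the text were picked after seeing their values. Some genes are not reported here. Overlaps were taken from the GENCODE M21 annotation.

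Alternatives were no TMM factors, DESeq2 1.42.0 size factors and its Wald test, no filter, limma 3.58.1 on log2(FPKM + 1) with FPKM of at least 0.5 in 3 samples, the same with a pseudocount of 0.1, a replicate block, leaving out each sample and NPCTKO samples 1 and 2, or 3 and 4, together. Trends in GC content and length as offsets (loess span 0.5) and FPKM without a filter were added after the data were seen. Totals per sample are in the report. The model and the preparation cannot be told apart.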

Additional observations from a re-analysis of the deposited data

Results flagged for a closer look

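Among the 4 NPCTKO samples, 1 value stood apart from the others by Dixon's criterion. *Sv2a*, a vesicle glycoprotein gene, was at 11.4 CPM in NPCTKO sample 4 and at 44.5 to 49.8 CPM in the other 3, so that the gap to the nearest sample took 0.863 of the whole range, above the critical value for 4 samples. This was 1 of 50 sets of values examined (43 genes and 7 role group sums), and chance marks about 1 in 20 such sets. The 3 NSCHRas-shp53 samples are too few for this criterion.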

How the results depend on the processing

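Of the 17 called genes, 0 changed direction in the 18 other fits. Higher and lower calls were 8 and 1 with the replicate block (4.46% and 2.01% of all genes), whose pairing had no basis in the data (r between same-numbered samples of 0.28, -0.19 and 0.19). They were 25 and 4 without NPCTKO samples 3 and 4 together (27.9% and 26% of all genes). Leaving out 1 library gave 6 to 15 higher and 0 to 2 lower (2.51% to 8.75% and 0.751% to 7.62% of all genes). Lower calls were 1 without TMM factors (3.36% of all genes) and 1 in each limma fit on FPKM (4.44% to 6.55%), and 4 with GC and length offsets (11.5%). Of the 42 genes, those lower without overlap were 7 without NPCTKO samples 1 and 2 together (28.3% of all genes), 6 without samples 3 and 4 together (36.2%) and 3 to 5 without 1 library (16.1% to 19.7%). Of the other vesicle and release genes, 22 of 45 were higher without NPCTKO samples 3 and 4 together (27.9% of all genes). Without 1 library 2 to 10 were higher (2.51% to 8.75% of all genes) and 0 to 1 lower (0.751% to 7.62%). In the fits without TMM factors, without a filter and with the block 1 was lower (3.36%, 2.54% and 2.01% of all genes). Of the other scaffold genes, 5 of 28 were higher with DESeq2 (12.6% of all genes) and 13 of 28 without NPCTKO samples 3 and 4 together (27.9%). With limma and no filter 5 of 31 were higher (7.62% of all genes), and without 1 library 1 to 4 (2.51% to 8.75%). With limma on log2(FPKM + 1) 3 were lower, with log2(FPKM + 0.1) 2, and without its filter 2 (6.4%, 6.55% and 4.44% of all genes). Lower calls were 0 without TMM factors, without a filter and with the block (3.36%, 2.54% and 2.01%), and 0 to 1 without 1 library (0.751% to 7.62%). Differences of mean log2 sums were 0.30 without TMM factors for vesicle genes (0.08 with them). For transmitter genes they were 4.10 without TMM factors and 3.64 on FPKM, which lacks *Slc17a7* (3.88 in CPM). For identity genes the difference was 0.51 on FPKM, which reads *Tubb3* (3.19 in CPM).

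The sign turned for 8 genes that were not called. Without NPCTKO sample 1 and sample 2, *Syt4* (-0.17 and -0.22) and *Pclo* (-0.15 and -0.18) were below 0 (up to 0.74 and 0.66 without another library), as was *Syt4* without NSCHRas-shp53 sample 2 (-0.23) and *Pclo* without sample 3 (-0.07) and with GC offsets (-0.12). Without NPCTKO samples 1 and 2 together, *Syt4* (-0.70), *Pclo* (-0.63), *Homer1* (-0.12) and *Nrxn2* (0.25) turned. Without samples 3 and 4 together, *Sv2c* (0.49), *Vamp2* (-0.12), *Rims2* (0.19) and *Nlgn1* (0.58) turned. On FPKM *Nrxn2* was at 0.31, 0.33 and 0.31 with pseudocounts of 1, 0.1 and 1 without a filter. The cause was not tested. Depth limits *Slc17a6*, *Slc32a1*, *Sv2b* and *Gad2* in NPCTKO, where counts were low.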
